A study of Mus musculus with 19 samples.

Results

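Ribosomal protein genes were taken as the protein-coding genes of a RefSeq gene table (assembly GRCm38.p6) whose symbols start with Rpl or Rps followed by a digit, leaving out the Rps6k kinases. This rule chose 87 of 21887 protein-coding genes. For each gene, the ATAC-seq peak whose center lay closest to either end of the gene was used if it lay within 1 kb. Such a peak was found for 79 genes, and these were 79 different peaks among the 90154 of the table. No measured value entered this rule, although it was set with earlier results of these data known. All 79 peaks passed the filter on low values. They belong to 47 genes named for the large (60S) subunit and 32 named for the small (40S) subunit. The symbol rule also takes in paralogues, retrogenes and a binding partner, namely Rpl3l, Rpl7l1, Rpl22l1, Rpl36al, Rps23rg1, Rpl34-ps1 and Rps19bp1. The 8 genes without a peak within 1 kb were Rpl10l, Rpl17, Rpl31-ps12, Rpl32l, Rpl37rt, Rpl39l, Rps27l and Rps27rt.

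ATAC-seq measures accessible chromatin as the number of reads that a cutting transposase leaves in each region. The libraries came from neural stem cells of the ventricular zone of wild type C57BL/6J mice at embryonic day 14, each primary culture from 1 brain. The cells were grown with EGF as floating neurospheres (NSPs, 3 libraries, entitled astrocytes at 0 h in the sample titles) or differentiated in serum-containing medium on coated plates for 24 h (3 libraries), 72 h (3) or 1 week (4). Parallel cultures were differentiated with TNF, an inflammatory cytokine, at 50 ng/ml for 24 h (3 libraries) or 72 h (3), and none was treated for 1 week. All groups are cultures, and the share of cells that had become astrocytes in each was not given in the labels.

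Reads in peaks ranged from 28636739 to 39349111 in NSP libraries and from 9640256 to 25165008 in the differentiated ones, so the NSP libraries were the deepest. The shallowest member peak in any library held 18 recovered reads. All libraries of the 72 h, 72 h TNF and 1 week groups carry the tag Luc in their names and no others do, so what the tag stands for and the time of culture cannot be told apart. Of 8 NSP marker genes, 7 had a gene-end peak (all but Pax6), and their summed level was 5883 to 6739 normalized reads in NSPs, 2999 to 3670 at 24 h, 2540 to 2938 at 72 h and 3325 to 3577 at 1 week. Of 8 astrocyte markers, 7 had a peak (all but Aqp4), with summed levels of 1833 to 1969 in NSPs, 1750 to 2053 at 24 h, 2018 to 2139 at 72 h and 1514 to 1709 at 1 week, and with TNF 1396 to 1584 at 24 h and 1443 to 1541 at 72 h. Single astrocyte markers went both ways, with 2 higher and 2 lower at 72 h against NSPs. Neuronal markers had peaks for 3 of 6 genes, with summed levels of 669 to 1018 in NSPs and 304 to 401 at 1 week, and Dcx, Rbfox3 and Stmn2 had none. Peaks were found for 3 of 6 oligodendrocyte lineage markers, 2 of 5 microglial markers and 1 of 4 endothelial markers. The part of a change in cell makeup in the results given here was not tested.

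Ribosomal proteins are the protein components of the ribosome, and each is built into one of its subunits in a fixed amount. Their genes are housekeeping genes with compact promoters, and their transcription rises and falls with the demand for protein synthesis in growing cells. Their mRNAs start with an unbroken run of pyrimidines, the terminal oligopyrimidine (TOP) motif, through which mTOR signaling controls their translation. Proliferating stem cells need many new ribosomes, and differentiation is often accompanied by lower ribosome production.

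Promoter sequences from RefSeq (GRCm38.p6) were at hand for 67 of the 87 genes, from 250 bases before to 50 bases from the annotated start. Windows of 100 bases around the start are shown for 8 members: those with the tallest peaks (Rps19, Rpl13a, Rps21), members that fell most at 24 h or 72 h (Rpl24, Rpl37), members that rose most between 72 h and 1 week (Rps7, Rpl35), and Rps2, whose gene has a pair of peaks. The annotated start is base 81 of each window, written 5' to 3' on the strand of the gene. Capitals mark an ETS core (CCGGAAG on either strand) and the unbroken run of at least 5 C or T bases that holds the start base.
Rps19: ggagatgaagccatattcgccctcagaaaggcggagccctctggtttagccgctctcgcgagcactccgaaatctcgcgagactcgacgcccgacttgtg
Rpl13a: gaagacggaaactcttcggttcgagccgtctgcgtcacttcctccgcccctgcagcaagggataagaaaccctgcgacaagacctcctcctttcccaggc
Rps21: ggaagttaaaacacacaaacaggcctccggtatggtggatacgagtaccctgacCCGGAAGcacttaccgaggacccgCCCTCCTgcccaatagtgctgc
Rpl24: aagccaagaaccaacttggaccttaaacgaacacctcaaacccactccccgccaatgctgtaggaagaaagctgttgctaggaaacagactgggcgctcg
Rpl37: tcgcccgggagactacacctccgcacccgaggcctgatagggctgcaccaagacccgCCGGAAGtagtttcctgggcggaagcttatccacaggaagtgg
Rpl35: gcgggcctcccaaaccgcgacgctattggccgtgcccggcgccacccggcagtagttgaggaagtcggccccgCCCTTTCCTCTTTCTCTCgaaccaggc
Rps7: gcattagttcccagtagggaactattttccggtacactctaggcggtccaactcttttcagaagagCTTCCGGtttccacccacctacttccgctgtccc
Rps2: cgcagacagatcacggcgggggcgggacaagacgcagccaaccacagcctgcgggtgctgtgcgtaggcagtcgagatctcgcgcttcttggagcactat
The windows lie at chr7:24884512-24884611 (plus strand, Rps19), chr7:45128726-45128825 (minus strand, Rpl13a), chr2:180257299-180257398 (plus strand, Rps21), chr16:55966195-55966294 (plus strand, Rpl24), chr15:5116533-5116632 (plus strand, Rpl37), chr2:39005112-39005211 (minus strand, Rpl35), chr12:28635934-28636033 (minus strand, Rps7) and chr17:24719983-24720082 (plus strand, Rps2).

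Among the 67 promoters, 20 (29.9%) had a C or T run of at least 5 bases at the annotated start, compared with 8.48% of the promoters of 17425 other genes. An ETS core was present in 23 (34.3%), compared with 11.8% of the other promoters. The YY1 core AAGATGGC occurred in 5 (7.46% against 3.21%) and the GC box GGGCGG in 37 (55.2% against 46.3%). The CCAAT box was found in 20 (29.9% against 39.1%), and TATAAA within 40 bases before the start in 1 (1.49% against 3.18%). The E-box CACGTG (5 members, 7.46% against 7.90%) and the NRF1 core GCATGCGC (2 members, 2.99% against 3.61%) completed the search, which covered both strands except for the TATA box and the run. These are matches of letters, described without a test.

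The member peaks were all 500 bp long, so their levels can be compared per length. Their mean level over the 6 groups ran from 55.8 normalized reads for the retrogene Rpl34-ps1 to 2586 for Rps19, with a median of 519.8. Among the other gene-end peaks of the table, this placed the median member at percentile 62.9 by height, with a range from 8.11 to 99.1. The centers of 55 of the 79 peaks lay within 100 bp of a gene end. An annotated start lay within 1 kb of the peak for 53 members, 19 had no start in the promoter table, and for 7 the closest peak lay at another place than the annotated start (Rps2, Rpl19, Rpl38, Rpl22, Rpl18, Rpl3l and Rpl7l1). For 17 members the same peak was also the closest of a neighboring gene (Rpl7 with Rdh10, Rps27a with Clhc1, Rpl19 with Cacnb1, Rpl36al with Mgat2, Rpl15 with Nkiras1, Rpl37 with Card6, Rpl35a with Iqcg, Rpl3l with Msrb1, Rps28 with Ndufa7, Rps18 with Vps52, Rpl36 with Micos13, Rpl7a with Med22, Rpl12 with Lrsam1, Rps27 with Rab13, Rpl9 with Lias, Rps25 with Trappc4 and Rpl4 with Zwilch).

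On the deposited scale, the ribosomal protein gene peaks were lower at 24 h and 72 h than in NSPs and stood highest at 1 week, and the early direction depended on the scaling, as given with each comparison. The median level over the 79 peaks was 541 ± 60 normalized reads in 3 NSP libraries (mean and SD), 450 ± 31 in 3 libraries of 24 h, 467 ± 18 in 3 libraries of 72 h and 666 ± 8 in 4 libraries of 1 week. With TNF it was 421 ± 10 at 24 h (n = 3) and 501 ± 33 at 72 h (n = 3). The single NSP libraries gave 609, 498 and 516, and the 1 week libraries gave 665, 662, 660 and 678, so these 2 groups did not overlap. Member peaks took 0.284% of all reads in peaks in NSPs, 0.264% at 24 h, 0.280% at 72 h and 0.344% at 1 week. Because gene-end peaks moved together, each member was also compared with the 100 other gene-end peaks nearest to it in height. The median log2 difference from these was -0.11 ± 0.03 in NSPs, -0.12 ± 0.01 at 24 h, 0.10 ± 0.07 at 72 h and 0.21 ± 0.03 at 1 week (SD over libraries). With TNF it was -0.15 ± 0.01 at 24 h and 0.05 ± 0.03 at 72 h. All libraries of NSPs and 24 h, with or without TNF, lay below 0 on this scale, and all libraries of 72 h and 1 week lay above it. The like-height peaks were matched on the mean over all groups, so these differences average near 0 by construction. Only the change between groups can therefore be read, and the sign within a group has no meaning of its own.

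**Figure D1:**
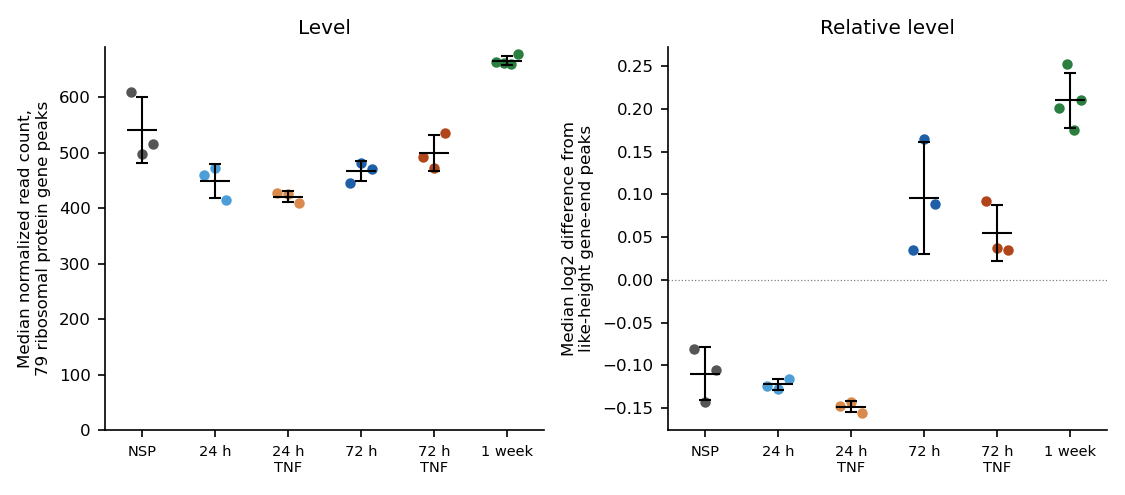
Level of the 79 ribosomal protein gene peaks in each of the 19 libraries (points), with the mean and SD of each group (lines). The left panel gives the median normalized read count, which was highest at 1 week (666 ± 8). The right panel gives the median log2 difference from 100 gene-end peaks of like height, which was below 0 in every NSP and 24 h library and above 0 in every 72 h and 1 week library. Heights were matched on the mean over all groups, so only the change between groups can be read, not the sign.

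The comparison of 24 h with NSPs asked which peaks changed on the first day in serum. Of the 79 members, 40 fell and 1 rose (limma-trend, adjusted p under 0.05), with a median log2 fold change of -0.34. Over all 88919 peaks tested, 23.0% fell and 24.2% rose. Among the 11588 other gene-end peaks 41.5% fell and 4.54% rose, with a median of -0.29, and gene-end peaks of the members' heights had a median of -0.32, with 49.1% called lower. The members' median difference from their like-height peaks was -0.02, with 38 members above and 41 below 0. The share of members that fell was thus near that of other gene-end peaks of the same height. The number of lower calls depended on single libraries and on the scaling: it was 17 without the third 24 h library and 25 without the first NSP library. Scaling to total reads in peaks gave 8 lower and 4 higher, loess offsets gave 8 and 6, and TMM factors gave 26 lower. Of all 88919 peaks, 12367 were lower and 26111 higher with total reads, and 17305 and 21816 with loess offsets. With TMM factors 18343 of them were lower.

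Among the 60S genes, 24 of 47 fell at 24 h and none rose, with a median of -0.35, and 16 of the 32 40S genes fell and 1 rose, with a median of -0.30. Rpl3, a core protein near the catalytic center of the large subunit, had 799, 498 and 511 normalized reads in NSPs and 392, 395 and 373 at 24 h. The first NSP library was the highest, and the groups did not overlap. Its log2 fold change was -0.60 (SE 0.15, adjusted p = 0.00122). Rpl24, which forms a bridge between the subunits, had 408, 333 and 346 reads in NSPs and 241, 260 and 217 at 24 h. It fell by 0.59 on the log2 scale (SE 0.14, adjusted p = 0.000977, limma-trend), again without overlap.

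Rpl10, which joins the 60S subunit late in its assembly and lies on the X chromosome, fell by 0.43 at 24 h (adjusted p = 0.00202, limma-trend), and the 40S proteins Rps3 and Rps10 fell by 0.42 and 0.37 (adjusted p = 0.00369 and 0.00916). Rpl5, a partner of Rpl11 in binding the p53 regulator MDM2, fell by 0.38 (adjusted p = 0.0452), and Rpl23, another MDM2 binder, fell by 0.35 (adjusted p = 0.0458). The calls of Rpl5 and Rpl23 were lost without the first NSP library, when their log2 fold changes were -0.26 and -0.12. Rpl11 itself had a value of -0.06 (SE 0.12, adjusted p = 0.674).

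A second fit took loess offsets from gene-end peaks alone and tested the 11676 gene-end peaks among themselves, which asks whether a peak moved apart from other gene-end peaks. It was chosen after the values had been seen. At 24 h this fit called 7 members higher and 1 lower, where 11.8% of all gene-end peaks were called higher and 9.58% lower. Those called higher were Rps2 (log2 fold change 2.87 on this scale), Rpl38 (0.52), Rpl19 (0.43), Rps14 (0.41), Rps19bp1 (0.30), Rps19 (0.24) and Rps29 (0.22).

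At 72 h, 34 members were lower than in NSPs and 4 were higher, with a median log2 fold change of -0.26. Over all peaks 30.9% were lower and 28.3% higher, and among other gene-end peaks 57.5% were lower and 7.25% higher, with a median of -0.42. Like-height gene-end peaks had a median of -0.44, and the members' median difference from them was 0.16, with 60 of 79 above 0. By height, 20 of the 26 tallest member peaks, 12 of the 27 of middle height and 2 of the 26 lowest were called lower. Other gene-end peaks were not split by height in this way. Whether this order is particular to the members was therefore not tested. Scaling to total reads gave 9 lower and 16 higher, and loess offsets gave 6 and 13. Of all 88919 peaks, 18512 were lower and 32636 higher with total reads, and 23762 and 25841 with loess offsets. In the fit among gene-end peaks, 32 members were higher and 2 lower, where 25.6% of gene-end peaks were higher and 24.3% lower. The 2 lower ones were Rps20 (-0.55) and Rpl37 (-0.38).

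Rps20, a 40S protein at the site where colliding ribosomes are marked with ubiquitin, fell furthest. Its peak (chr4:3835418-3835918 as deposited) had 934, 741 and 801 normalized reads in NSPs, 386, 421 and 412 at 72 h and 648, 524, 682 and 580 at 1 week. Neither later group overlapped with NSPs, and 72 h was the lowest of the 3 groups. The log2 fold change was -1.02 at 72 h (SE 0.12, adjusted p = 4.27e-08) and -0.44 at 1 week (SE 0.11, adjusted p = 0.0013, limma-trend). The peak of Rpl37, a 60S protein whose promoter window holds an ETS core, is shared with Card6. It had 2244, 1874 and 2156 reads in NSPs, 1136, 1026 and 1216 at 72 h and 1948, 1999, 2368 and 1780 at 1 week. Its log2 fold change was -0.89 at 72 h (SE 0.11, adjusted p = 1.17e-07), and at 1 week its libraries overlapped with NSPs, with -0.05 (adjusted p = 0.687), although the fit among gene-end peaks called it lower (-0.22, adjusted p = 0.00425). The paralogue gene Rpl36al, which shares its peak with Mgat2, fell by 0.66 at 72 h (adjusted p = 2.22e-06). In the fit among gene-end peaks Rpl36al was not called at 72 h, with -0.16 (adjusted p = 0.0781).

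At neither 24 h nor 72 h were 29 of the 79 members called lower. The same count was not made for other gene-end peaks, so it marks no trait of the members. Of those peaks, 41.5% were lower at 24 h and 57.5% at 72 h. Rps14, a 40S protein known for its loss in a human myelodysplastic syndrome, had 494, 566 and 559 reads in NSPs, 614, 549 and 553 at 24 h, 564, 557 and 565 at 72 h and 878, 895, 979 and 842 at 1 week. The first 3 groups overlapped, and 1 week stood above all of them. Its log2 fold change from NSPs was 0.08 at 24 h (adjusted p = 0.533), 0.06 at 72 h (adjusted p = 0.636) and 0.74 at 1 week (SE 0.10, adjusted p = 1.45e-07). Rps27a, which encodes ubiquitin fused to a 40S protein, had 438, 407 and 398 reads in NSPs, 443, 462 and 512 at 72 h and 659, 693, 790 and 678 at 1 week. It had a log2 fold change of 0.19 at 72 h (adjusted p = 0.182) and rose by 0.76 at 1 week (SE 0.11, adjusted p = 7.2e-07). In the fit among gene-end peaks both were higher at 72 h, with 0.54 for Rps14 and 0.64 for Rps27a.

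Rps19, the gene most often mutated in Diamond-Blackfan anemia, had the tallest member peak (chr7:24884086-24884586). It had 3022, 1779 and 1959 reads in NSPs, 2316, 2269 and 1965 at 24 h, 2137, 2190 and 2289 at 72 h and 3693, 3629, 4377 and 3696 at 1 week. The first NSP library stood above the other NSP libraries, the first 3 groups overlapped, and 1 week lay above them all. The log2 fold change from NSPs was -0.01 at 24 h (adjusted p = 0.961), 0.01 at 72 h (adjusted p = 0.964) and 0.81 at 1 week (SE 0.13, adjusted p = 2.92e-06). The other members with very tall peaks fell before they rose. Rpl13a, a 60S protein also known as a translational silencer when released from the ribosome, had values of -0.40 at 24 h (adjusted p = 0.00466) and 0.50 at 1 week (adjusted p = 0.00015). Rps21, a 40S protein whose window holds both an ETS core and a C or T run at the start, fell by 0.55 at 72 h (adjusted p = 4.3e-05). Neither of these falls was called in the fit among gene-end peaks. There Rpl13a had -0.14 at 24 h (adjusted p = 0.0879) and Rps21 had -0.04 at 72 h (adjusted p = 0.54).

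After 1 week, 48 members were higher than in NSPs and 3 were lower, with a median log2 fold change of 0.34. Over all peaks 33.7% were higher and 33.6% lower, and among other gene-end peaks 25.6% and 27.3%, with a median of 0.01. Like-height gene-end peaks had a median of 0.03, and 27.6% of them were higher. The members' median difference from them was 0.30, and 70 of 79 lay above 0. This difference ranged from 0.30 to 0.34 when each library was left out in turn. In the fit among gene-end peaks, 49 members were higher and 3 lower, where 28.8% of gene-end peaks were higher and 27.4% lower, with a member median of 0.32. The 3 lower ones in this fit were Rps20 (-0.46), Rpl3 (-0.30) and Rpl37 (-0.22). Both subunits took part, with 26 of 47 60S genes higher (median 0.31) and 22 of 32 40S genes higher (median 0.38).

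Rpl26, a 60S protein that also binds p53 mRNA, had 418, 260 and 231 reads in NSPs and 504, 518, 513 and 518 at 1 week. The groups did not overlap, and the log2 fold change was 0.81 (SE 0.16, adjusted p = 4.39e-05). Rpl11 had 509, 450 and 516 reads in NSPs and 697, 774, 636 and 747 at 1 week, a rise of 0.54 (SE 0.11, adjusted p = 8e-05, limma-trend). Rps6, the target of the S6 kinases, had 896, 704 and 797 reads in NSPs and 1049, 1015, 1065 and 1005 at 1 week. All 1 week libraries lay above all NSP libraries, with a log2 fold change of 0.38 (SE 0.11, adjusted p = 0.0024). Rps3, Rpl23 and Rpl10 rose by 0.48, 0.48 and 0.32 (adjusted p = 0.000256, 0.0023 and 0.00737).

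On the deposited scale, the 3 members lower at 1 week were Rps20, Rpl3 and Rpl22, and the calls of the last 2 rested on single libraries. Rpl3 had 465, 491, 412 and 543 reads at 1 week, which overlapped with NSPs, and its log2 fold change of -0.31 (adjusted p = 0.049) became -0.09 without the first NSP library. The Rpl22 peak lay 946 bp from the gene end and away from the annotated start, with 65.4, 116 and 152 reads in NSPs and 75.8, 63.9, 57.2 and 77.2 at 1 week. Its fall of 0.62 (adjusted p = 0.0183, limma-trend) was not called without the second or the third NSP library or without the third 1 week library. The peak at the annotated start of Rpl22 had a log2 fold change of 0.19 at 1 week. Rpl22l1, the paralogue of Rpl22, had a value of 0.12 (adjusted p = 0.397).

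**Figure D2:**
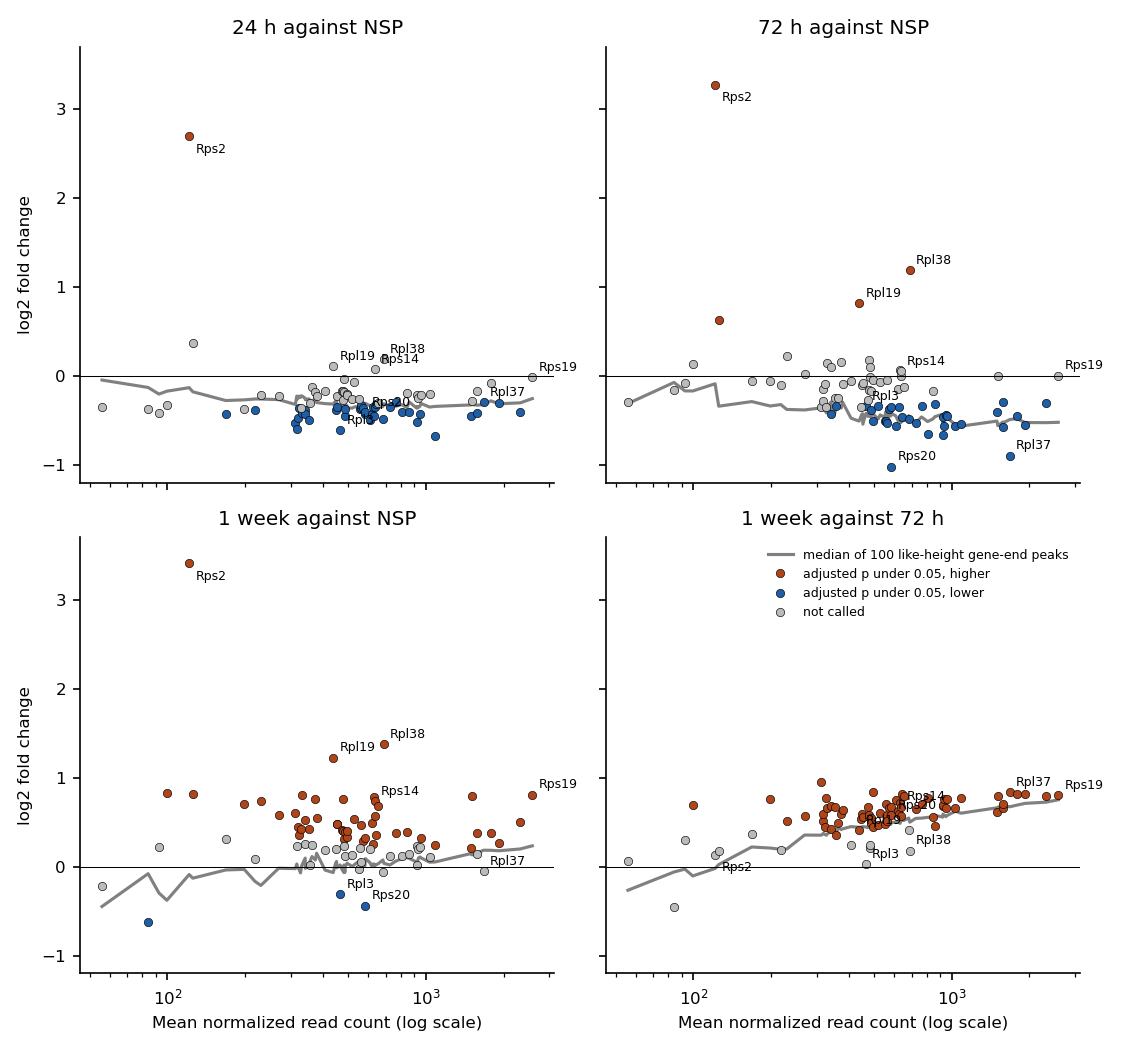
Log2 fold change of each of the 79 member peaks (points) against its mean normalized read count (log axis) in 4 comparisons, with the median change of 100 gene-end peaks of like height as a gray line. Members scatter around the line at 24 h and most lie above it at 72 h and 1 week against NSPs, with 70 of 79 above it in the latter. Rps2, Rpl38 and Rpl19 stand far above the rest at 72 h and 1 week.

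Between 72 h and 1 week, 66 of 79 members rose and none fell, with a median log2 fold change of 0.60. The lower count was 0 with limma-trend, with edgeR, with DESeq2 and at an unadjusted p under 0.05. Over all peaks 22.5% rose and 16.2% fell. Other gene-end peaks also rose, 59.0% of them, with 4.88% lower and a median of 0.42, and like-height gene-end peaks had a median of 0.47 with 75.0% higher. The members' median difference from the latter was 0.12, with 62 of 79 above 0. With scaling to total reads 35 rose and 1 fell, and with loess offsets 17 rose and 1 fell. Of all 88919 peaks, 7966 rose and 30032 fell with total reads, and 11619 and 10210 with loess offsets. In the fit among gene-end peaks 6 members were higher and 2 lower, where 4.98% of gene-end peaks were higher and 6.84% lower. The 2 lower ones were Rpl3 (-0.41) and Rpl38 (-0.33). The median of all peaks was 0.02 as deposited and -0.31 with scaling to total reads.

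Rps7, a 40S protein that binds MDM2, showed the largest rise of this step. It had 212, 244 and 311 reads at 72 h and 543, 514, 469 and 432 at 1 week, with no overlap. The log2 fold change was 0.95 (SE 0.15, adjusted p = 2.26e-05), and it was also higher in the fit among gene-end peaks (0.60). Rpl35, a 60S protein at the tunnel exit, had 331, 384 and 407 reads at 72 h and 717, 653, 660 and 639 at 1 week. Its start lies in the longest C or T run of the windows shown, 18 bases, and its log2 fold change was 0.84 (SE 0.11, adjusted p = 1.95e-06), with 0.38 in the fit among gene-end peaks. Rpl37 rose by 0.84 as well (adjusted p = 1.12e-06). At the other end of the order, the gene-end peak of Rpl22 had -0.46 (adjusted p = 0.111), Rpl3 0.03 (adjusted p = 0.882) and the retrogene Rpl34-ps1 0.07 (adjusted p = 0.89). Rpl3 was lower than other gene-end peaks in the fit among them, with -0.41, as was Rpl38 with -0.33.

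**Figure D3:**
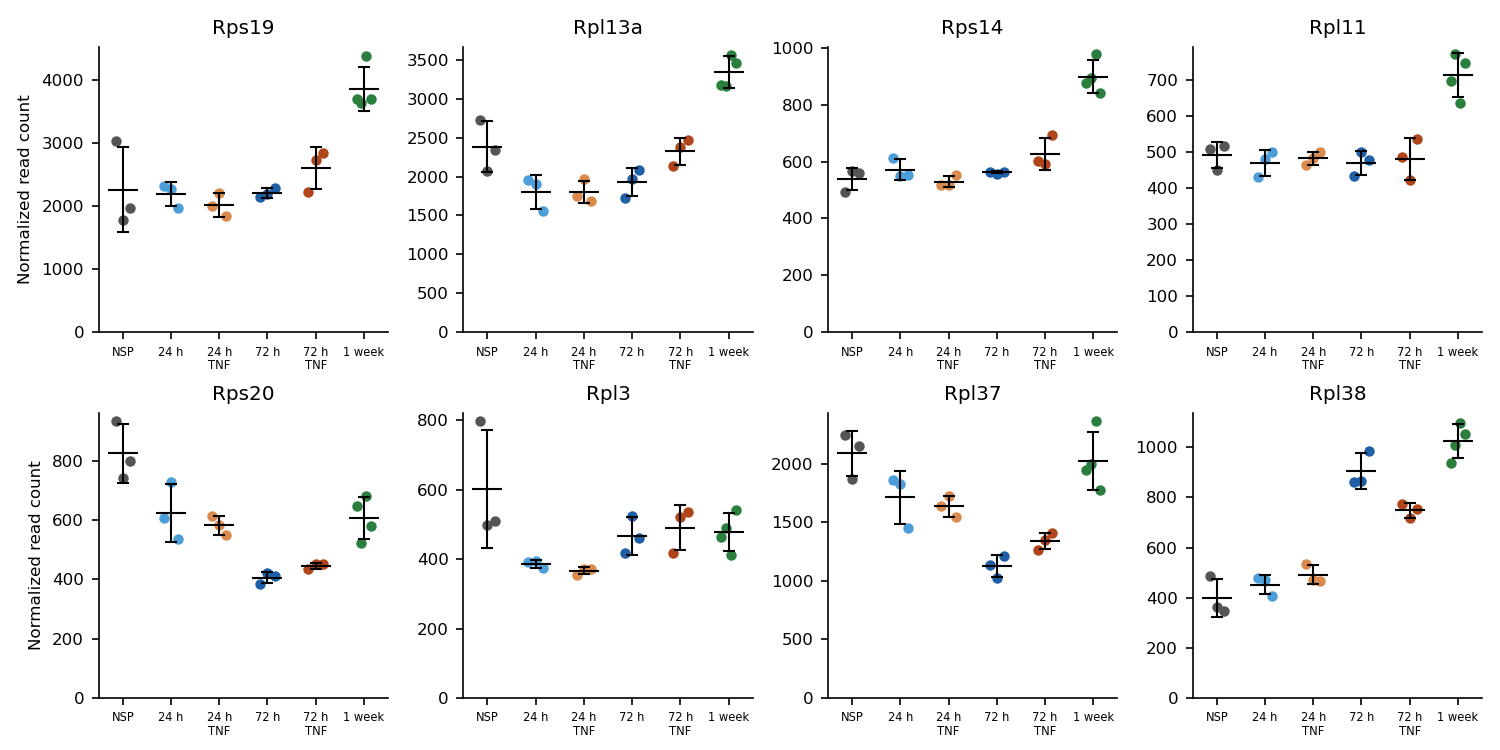
Normalized read counts of selected member peaks in each library (points), with the mean and SD of each group (lines). The 1 week libraries of Rps14, Rps19, Rpl11 and Rpl13a lie above all NSP libraries, and Rps20 and Rpl37 were lowest at 72 h.

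TNF left nearly all members within the spread between libraries. At 24 h no member was higher with TNF and 1 was lower, with a median log2 fold change of -0.06, where 7.06% of all peaks were higher and 3.53% lower. At 72 h none was higher and 1 lower, with a median of 0.12, where 6.24% of all peaks were higher and 5.55% lower. edgeR and DESeq2 also called 0 members higher at either time, and an unadjusted p under 0.05 was reached upward by 2 members at 24 h and 8 at 72 h. TNF calls among the other gene-end peaks were 1.48% upward and 0.621% downward at 24 h, then 2.98% and 0.992% at 72 h, so the members' counts were near those of gene ends in general. These peaks had medians of -0.04 and 0.13, and the members' median difference from like-height peaks was -0.02 at 24 h and -0.01 at 72 h. Leaving out the first NSP library gave 3 lower calls at 24 h and 2 higher calls at 72 h, and 3 were lower at 24 h without the third TNF library.

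The member called lower with TNF on the deposited scale was Rps2 at both times, through its peak at the far end of the gene. The fit among gene-end peaks called 0 members higher and 1 lower at 24 h (Rps2), against 1.02% and 0.36% of the gene-end peaks in the same fit. At 72 h it called 0 higher and 2 lower, against 0.968% and 0.925%. The 2 were Rps2 (-2.02) and Rpl38 (-0.41, adjusted p = 0.00827). Below Rps2 in the order at 24 h stood the retrogene Rps23rg1 (-0.58, SE 0.22, adjusted p = 0.105) and Rpl21 (-0.36, SE 0.14, adjusted p = 0.105). High values with TNF were 0.32 for Rpl35 (SE 0.12, adjusted p = 0.0774) and 0.29 for Rpl10a (adjusted p = 0.084), both at 72 h. The difference between the TNF effects at 72 h and 24 h was called for 0 members in either direction with limma-trend, edgeR or DESeq2, with 6 higher and 1 lower at an unadjusted p under 0.05. Over all peaks the calls of this interaction were 0.0% higher and 0.00112% lower.

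Rps2, a 40S protein near the mRNA entry, has a pair of peaks. The peak chosen by the rule (chr17:24721926-24722426) lay 249 bp from the far end of the gene. It had 16.4, 25.4 and 19.3 normalized reads in NSPs, 121, 119 and 172 at 24 h, 165, 203 and 250 at 72 h and 215, 206, 229 and 243 at 1 week. With TNF it had 37.1, 61.4 and 69.6 at 24 h and 51.9, 60.6 and 40.8 at 72 h. NSPs were lowest, the untreated differentiated groups highest, and the TNF groups lay between without overlap at either time. The log2 fold change from NSPs was 2.70 at 24 h (SE 0.24, adjusted p = 1.5e-10) and 3.41 at 1 week (SE 0.22, adjusted p = 4.43e-14). With TNF it was -1.31 at 24 h (SE 0.24, adjusted p = 0.000347) and -1.99 at 72 h (adjusted p = 1.16e-06). The difference between the TNF effects at 72 h and 24 h was -0.68 (SE 0.33). It was not called after adjustment over all peaks (limma-trend, adjusted p = 0.666).

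The peak at the annotated start of Rps2 (chr17:24719762-24720262) was much taller. It had 1238, 985 and 948 reads in NSPs, 896, 954 and 777 at 24 h, 852, 947 and 993 at 72 h and 1532, 1497, 1716 and 1420 at 1 week. The 24 h TNF libraries had 847, 923 and 938. The 1 week libraries lay above all NSP libraries, with a log2 fold change of 0.55 (SE 0.10, adjusted p = 3.42e-05), and the 24 h TNF libraries lay below them. The log2 fold change was -0.27 at 24 h against NSPs (adjusted p = 0.0508) and 0.05 and 0.07 with TNF (adjusted p = 0.871 and 0.746). When the peak closest to an annotated start replaced the gene-end peak wherever a start was given, no member was lower with TNF, 41 fell and 0 rose at 24 h, while 45 rose and 2 fell at 1 week against NSPs. Of the other gene-end peaks, 41.5% fell and 4.54% rose at 24 h, and 25.6% rose and 27.3% fell at 1 week. With TNF 0.621% of those were lower at 24 h and 0.992% at 72 h.

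**Figure D4:**
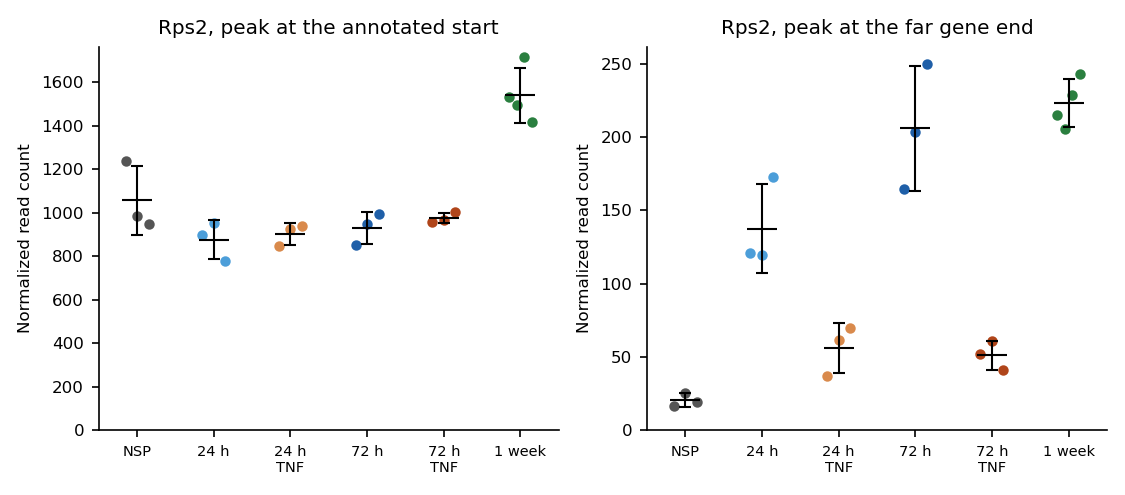
Normalized read counts of the 2 Rps2 peaks in each library (points), with the mean and SD of each group (lines). The peak at the far gene end (right) rose from NSPs to 1 week and was lower with TNF at 24 h and 72 h, whereas the taller peak at the annotated start (left) was highest at 1 week.

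Rpl38 and Rpl19 were the other members with large rises, and their closest peaks also lay away from the annotated start. Rpl38, a 60S protein known for its part in the translation of Hox mRNAs, had 485, 363 and 347 reads in NSPs, 862, 864 and 987 at 72 h and 937, 1011, 1098 and 1052 at 1 week at a peak 985 bp from the gene end. Its log2 fold change was 1.19 at 72 h (SE 0.12, adjusted p = 1.27e-09) and 1.37 at 1 week (adjusted p = 7.95e-12), and the peak closest to its annotated start gave 0.49 and 0.99. With TNF at 72 h the far peak of Rpl38 had 772, 717 and 755 reads, all below the untreated libraries, and a log2 fold change of -0.27 (SE 0.12, adjusted p = 0.151). Rpl19, a 60S protein that bridges the subunits, had 334, 231 and 256 reads in NSPs and 684, 654, 592 and 608 at 1 week, in a peak shared with Cacnb1. It rose by 0.82 at 72 h and 1.22 at 1 week (adjusted p = 1.9e-06 and 1.92e-10, limma-trend), while the peak at its annotated start had -0.19 and 0.16.

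Restricting the set to the 53 peaks at an annotated start gave 32 lower and 0 higher at 24 h, 23 lower and 1 higher at 72 h and 31 higher and 0 lower at 1 week against NSPs. Of the 17 peaks shared with a neighboring gene, 6 fell at 24 h and 9 rose at 1 week. Of the 4 members on the X chromosome, 3 fell at 24 h and 2 rose at 1 week. Among other gene-end peaks 41.5% were lower and 4.54% higher at 24 h, and 57.5% lower and 7.25% higher at 72 h. At 1 week against NSPs 25.6% of these were higher and 27.3% lower. Whether the subsets differ from these shares was not tested. Among members at annotated starts, the 18 with an ETS core had a median of 0.71 from 72 h to 1 week and the 35 without one had 0.56, and at 24 h the medians were -0.36 and -0.35. The 17 with a C or T run at the start and the 36 without had medians of 0.65 and 0.61 from 72 h to 1 week and of 0.34 in both for 1 week against NSPs. These medians are descriptions, and whether the groups differ was not tested.

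Other genes of the translation machinery were read in the same fit. Among the 11588 other gene-end peaks, 41.5% were lower at 24 h and 57.5% at 72 h against NSPs. At 1 week against NSPs 25.6% of them were higher and 27.3% lower, and from 72 h to 1 week 59.0% were higher. The counts of each list stand beside these shares, and whether they differ was not tested. The 7 acidic or unnumbered ribosomal proteins and fusions (among them Rplp0, Rplp1 and Rplp2 of the stalk) had 3 lower calls at 24 h, 4 lower at 72 h, 4 higher at 1 week against NSPs and 7 higher from 72 h to 1 week. Rplp2 fell by 0.63 at 24 h (adjusted p = 0.000166) and rose by 0.91 from 72 h to 1 week (adjusted p = 1.45e-06, limma-trend). Among 22 translation factors and other genes with TOP mRNAs, 11 fell at 24 h and 18 rose from 72 h to 1 week. Against NSPs, 6 of these 22 were higher at 1 week and 3 lower, with a median of 0.08, where the ribosomal protein peaks had 0.34. Pabpc1, the poly(A) binding protein, fell by 0.78 at 24 h (adjusted p = 0.000664) and rose by 0.80 from 72 h to 1 week (adjusted p = 0.000451), and the initiation factor gene Eif4b fell by 0.76 at 24 h (adjusted p = 0.000463).

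Of 51 genes for RNA polymerase I and ribosome biogenesis, 49 had a peak, of which 33 fell at 24 h, 25 were lower at 72 h, 22 were higher at 1 week against NSPs and 42 rose from 72 h to 1 week. Nop10, a component of the particles that modify ribosomal RNA, fell by 1.07 at 24 h (adjusted p = 8.04e-06), and Bms1, a GTPase of small subunit assembly, rose by 0.88 from 72 h to 1 week (adjusted p = 2.35e-07). Fbl, the rRNA methyltransferase fibrillarin, had 0.17 (adjusted p = 0.221) and 0.00 (adjusted p = 0.993) in the same comparisons. Peaks of 74 of 78 mitochondrial ribosomal protein genes (73 different peaks) gave 19 lower and 2 higher at 24 h, 35 lower and 5 higher at 72 h, 30 higher and 5 lower at 1 week against NSPs and 51 higher from 72 h to 1 week. The 2 that rose at 24 h were Mrps2 (0.40, adjusted p = 0.0088) and Mrpl58 (0.36, adjusted p = 0.0301). Peaks at other gene ends were 41.5% lower and 4.54% higher at 24 h, and 57.5% lower and 7.25% higher at 72 h. At 1 week against NSPs 25.6% of those were higher and 27.3% lower, and from 72 h to 1 week 59.0% were higher. With TNF, 1 biogenesis gene and 1 mitochondrial gene were higher at 24 h and 1 translation factor at 72 h, and no other peak of these lists was called. Of the other gene-end peaks, 1.48% were higher with TNF at 24 h and 2.98% at 72 h. Comparisons with NSPs share the NSP libraries, and the 2 comparisons at 1 week share the 1 week libraries. The comparisons of 72 h with NSPs and of 1 week with 72 h share the 72 h libraries, with opposite sign. The patterns of members and lists in them are therefore not independent.

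**Figure D5:**
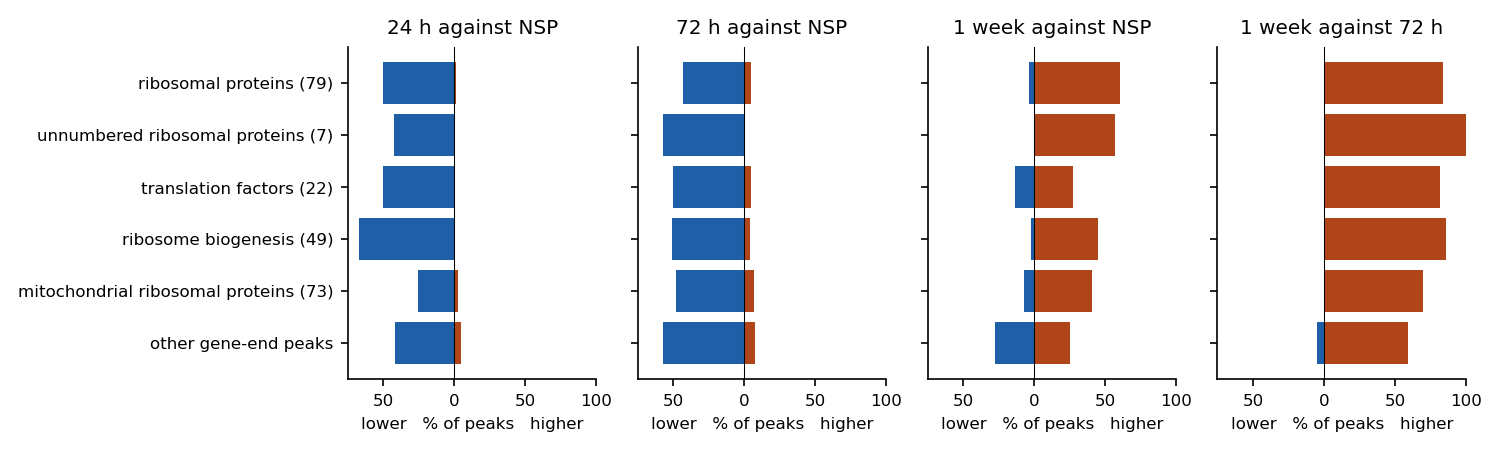
Percentage of peaks called higher (red, to the right of 0) and lower (blue, to the left of 0) in each list (limma-trend, adjusted p under 0.05), for ribosomal protein genes (79 peaks), other translation lists and other gene-end peaks (11588), in 4 comparisons. All lists have more lower than higher calls at 24 h and more higher than lower calls from 72 h to 1 week.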

How the data were processed

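ATAC-seq libraries were analyzed from 19 samples in 6 groups, which were taken from the sample titles. The values deposited by the authors are a normalized signal, 1 for every peak in every library. Trim Galore, Bowtie2, SAMtools, MACS2 and the build mm10 are named in the submitters' processing notes, and the study adds the removal of mitochondrial reads and blacklisted regions. Versions, the handling of duplicates, the read shift and the normalization are not given in the sources used here, and an unshifted cut would be displaced by few bases within windows of 500 bp. Within a library, 100% of values were integer multiples of its smallest value (tolerance 0.01 reads), so whole reads were recovered. On these, edgeR called 22561 peaks higher and 20131 lower at 24 h against NSPs.

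Values were transformed as log2(value + 1), a scale that understates changes of low peaks, and group means were estimated over all 19 libraries at once with limma-trend (limma 3.58.1 in R 4.3.3). Peaks entered if filterByExpr of edgeR 4.0.16 kept their reads at a minimum count of 10, which left 88919 peaks and removed 1235. P-values were two-sided, adjusted by the Benjamini-Hochberg method over all peaks tested, and called under 0.05. They measure the spread between libraries of separate cultures. DESeq2 1.42.0 served as an alternative, as did other scalings, filters, distances and sets. The limma step was tested on simulated data.

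Gene ends and promoters came from RefSeq (GRCm38.p6). The gene table gives no exons, so exons, introns and UTRs were not assigned. The comparison of height used the mean of 6 group means. Members and lists were chosen with earlier results of these data known. Genes were named by a rule: the 3 tallest and 3 lowest members, the 3 largest changes in each direction per comparison, a set with well known roles, members without a peak or with a shared one, and the 2 largest changes in each direction of each list. Some members that this rule names are not reported here. Rps19bp1 and Rps29 were named after their values were seen. The numbers in sample titles and library names were not used to pair the libraries. Deviations of libraries with the same number correlated weakly, from -0.03 to 0.11, which cannot exclude a shared culture of origin.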

Additional observations from a re-analysis of the deposited data

Results flagged for a closer look

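Among the 34 named members with a peak, 3 had 1 library of the 1 week group apart from the other 3 (the gap to the nearest library over the range of the group was above Dixon's critical value, which chance passes in about 1 in 20 groups). The Rps19 peak had 4377 normalized reads in the third 1 week library, where the others had 3629 to 3696. The Rpl36al peak had 1208 in the same library, where the others had 1066 to 1085. The Rpl7l1 peak had 178 in the second 1 week library, where the others had 150 to 154.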

How the results depend on the processing

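The number of members called lower at 24 h was 26 with TMM factors, 8 with loess offsets, 8 with total reads in peaks, 10 with only the groups compared and 1 with loess offsets among gene-end peaks, and 6, 4 and 7 were higher with loess offsets, total reads and gene-end loess offsets. At 72 h loess offsets gave 13 higher and 6 lower, total reads 16 and 9, and gene-end loess offsets 32 and 2. From 72 h to 1 week they gave 17 and 1, 35 and 1, and 6 and 2. The counts over all peaks in these scalings stand with each comparison above. With only the groups compared, 15857 of 88919 peaks were lower at 24 h. Lower calls with TNF at 72 h were 2 under each of these 3 scalings, and with only the groups compared 1 was higher there and 1 lower at 1 week against NSPs. With TNF at 72 h, 5212 of all 88919 peaks were lower with loess offsets and 6602 with total reads. Of the 11676 gene-end peaks, 108 were lower there with gene-end loess offsets. With only peaks at an annotated start, 0 were higher at 24 h, 1 at 72 h and 31 at 1 week against NSPs, and 0 were lower at 1 week or with TNF. Gene ends within 500 bp gave 2 higher at 72 h. The peak closest to an annotated start gave 0 higher at 24 h, 2 at 72 h and 0 lower with TNF. This last choice and the gene-end loess offsets were added after the data had been seen.

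Leaving out single libraries, the lower calls at 24 h ranged from 17 to 46 and the higher ones from 1 to 2, lower calls at 1 week against NSPs from 1 to 3, lower calls with TNF at 24 h from 1 to 3, and higher calls with TNF at 72 h from 0 to 2. The members' median difference from like-height peaks lay between -0.021 and 0.033 at 24 h (0.033 without the first NSP library), between 0.11 and 0.21 at 72 h, and between 0.30 and 0.34 at 1 week against NSPs.

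Among named members, Rpl13a and Rps6 at 72 h turned to 0.21 and 0.0044 with loess offsets. From 72 h to 1 week Rpl3 turned negative with DESeq2 (-0.012), RLE factors (-0.019), TMM factors (-0.079), edgeR (-0.070), loess offsets (-0.33) and total reads (-0.31), and ranged from -0.048 to 0.117 when single libraries were left out. Rpl34-ps1 did so with TMM factors (-0.040), edgeR (-0.019), total reads (-0.27), and ranged from -0.26 to 0.30 when single libraries were left out. In these settings neither was called, other than Rpl3 as lower with gene-end loess offsets (-0.41). The cause of these shifts was not tested.

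The library numbers were not used to pair the samples in the main fit. With a replicate block, 38 members were lower at 24 h by the library name number and 33 by the title number, Rpl3 from 72 h to 1 week had -0.024 and -0.033, and Rpl34-ps1 had -0.034 by title number. The depth of the libraries limits the lowest member peaks, and the far-end peak of Rps2 in NSPs has the lowest normalized level of those described. Of the summary values, 764 stayed within 1.5 times or the spread, 47 moved and 1 turned. Of the values of single named members, 3162 kept their direction and call, 264 lost the call, 11 gained it and 19 turned.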
